A study of Homo sapiens with 6 samples.

Results

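The heat shock chaperones of the cytosol and the mitochondria were examined in PANC-1 cells, a human line derived from a pancreatic carcinoma, with and without maslinic acid (MA), a triterpenoid of the olive. The set was given as 46 gene names, and all 46 were found among the 58825 genes of the deposited expression table. One name, HSPA14, stood on a pair of gene identifiers, and the identifier with the higher mean level was used. RNA was sequenced from 3 samples given 40 μM MA over 24 h, called MA PANC-1 1 to 3, and 3 samples at 0 μM MA, called PANC-1 1 to 3, described in the methods as biological replicates. Both groups were the same unmodified line in the same medium. The methods give 0.1% DMSO as the alternative to MA in cultures of the line, while the labels call the samples at 0 μM untreated, so whether these held DMSO is uncertain. The comparison asks whether MA moved the mRNA of the folding machinery. A measurement on a whole culture cannot tell fewer cells that make an mRNA from less of it in each cell.

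Chaperones hold unfolded proteins and let them fold, mostly in cycles driven by ATP. HSP70 proteins bind short stretches of an unfolded chain, J-domain proteins hand them their clients, and HSP110 and BAG proteins release the nucleotide. HSP90 finishes kinases and steroid receptors with its own co-chaperones, small heat shock proteins hold clients without ATP, and the ring-shaped chaperonins, TRiC in the cytosol and HSP60 with HSP10 in the mitochondria, enclose them. In stressed cells the transcription factor HSF1 binds heat shock elements, inverted repeats of GAA and TTC, and raises a part of these genes within hours.

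No chaperone passed the adjusted test, and no chaperone reached the thresholds for differentially expressed genes (DEGs) that the study used, a 2-fold difference either way with an unadjusted p-value under 0.05. Both counts were 0 of 46 in the quasi-likelihood test of edgeR, where 0.0394% of the 17774 genes tested passed at an adjusted p-value under 0.05 and 1.92% were DEGs. DESeq2 also called 0 of 46 by either rule, where it passed 1.48% of all genes at the adjusted threshold and 1.79% were DEGs. With limma on log2(FPKM + 1) the counts were 0 of 46 as well, beside 0.0506% and 0.248%, and on log2(FPKM + 0.1) 0 of 46 beside 0.045% and 2.06%. At an unadjusted p-value under 0.05, HSPA1B, HSPA1A and STIP1 were higher after MA, 3 of 46 beside 5.37% of all genes tested. The count of lower members was 0, beside 5.86%. HSPA1A and HSPA1B share much of their sequence, so their calls, here and in later counts, are not independent. Log2 fold changes ran from −0.42 in CHORDC1 to 0.37 in DNAJA3, so the largest of the 46 amounted to 1.34-fold. Their median was 0.07, against −0.0017 over all genes tested, and 26 of 46 lay above 0, where 49.8% of all genes did.

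Most members were measured closely enough to bound the change. The 95% interval of the log2 fold change lay within a 2-fold change in both directions for 42 of 46 members (91.3%), compared with 62.5% of all genes tested. The exceptions were DNAJB5, DNAJA4 and HSPA2, which were low or scattered, and CHORDC1. All 46 passed the filter on low values, a mean of at least 0.1 FPKM (fragments per transcript length and sequencing depth) over the 6 samples. The groups did not overlap in 8 members that were higher after MA, beside 10.4% of all genes, and in 2 that were lower, beside 10.2%. The 8 were HSPA1A, HSPA1B, HSP90AB1, CCT3, CCT7, AHSA1, STIP1 and DNAJB2, and the 2 were HSPA13 and DNAJA2. A separation of this kind in 1 gene has an exact p = 0.1 by two-sided permutation, and no smaller value is possible with 3 against 3 samples.

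**Figure D1:**
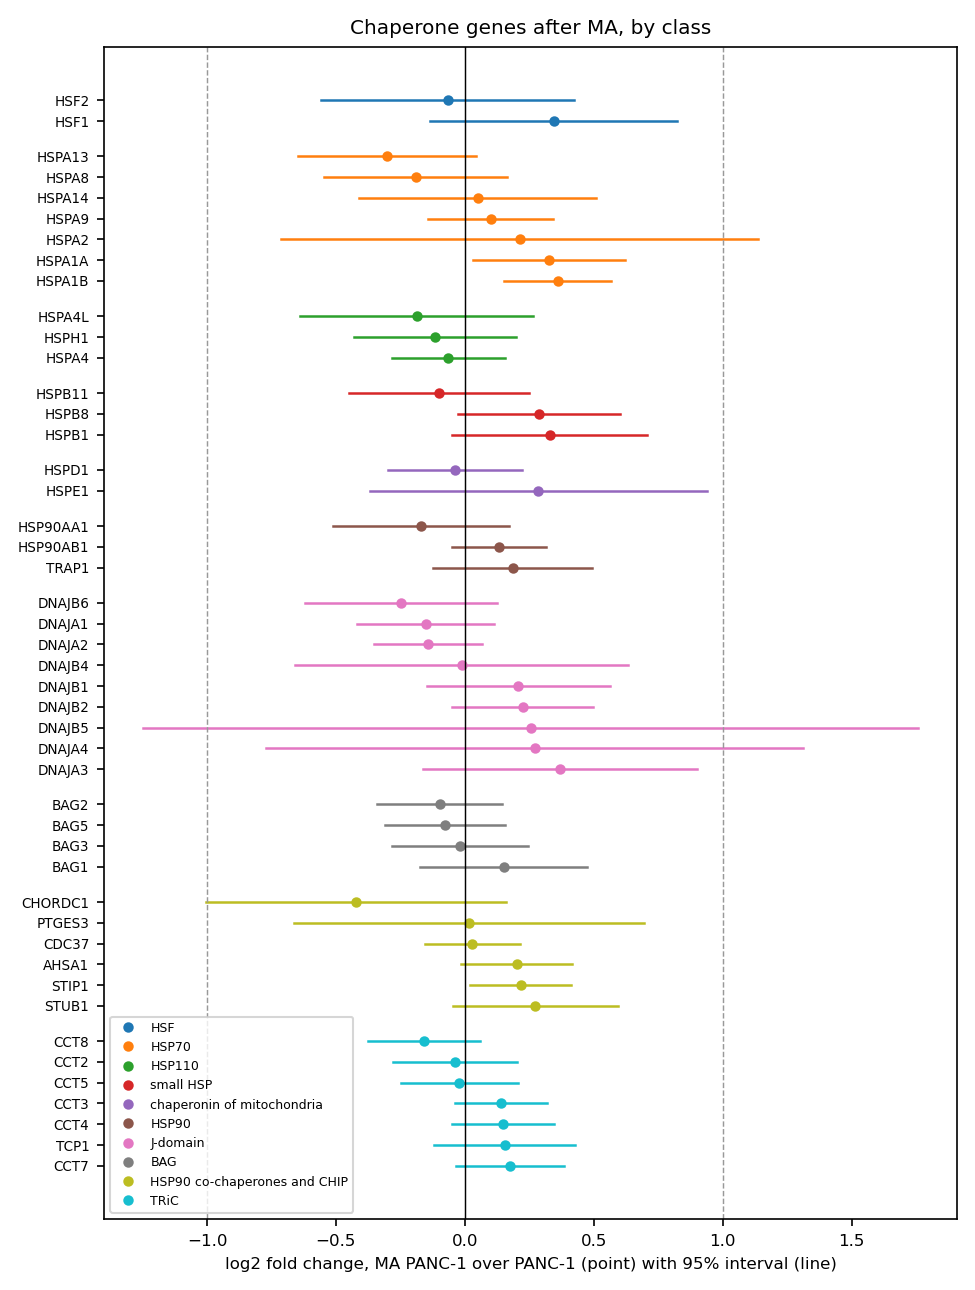
Log2 fold change of each of the 46 chaperone genes, MA PANC-1 over PANC-1 (point), with its 95% interval from edgeR (line), coloured by class; dashed lines mark a 2-fold change. The points lie between −0.42 and 0.37, and the widest interval belongs to DNAJB5.

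One library stood furthest from the others before any gene was compared. MA PANC-1 2 lay at −73.57 on the first principal component, which held 26.38% of the variance. MA PANC-1 1 was next at −29.54, and the other samples lay between 16.17 and 44.87. The transcripts of MA PANC-1 2 had a mean GC content of 51.76%, against 50.43% to 50.93% in the other libraries. Its deviations from the mean over the 6 libraries sloped by 0.31 on the log2 scale for each 10 points of GC. MA PANC-1 1 had a slope of 0.03, and the other libraries lay between −0.12 and −0.04. The 6 deposited count columns summed to 56978375, 63984133 and 58181114 in MA PANC-1 1 to 3 and to 70275355, 65607669 and 59422939 in PANC-1 1 to 3, and the chaperones took from 1.49% to 1.77% of each total.

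The chaperones followed this slope. Across the 46 members the deviation of MA PANC-1 2 had a rank correlation of 0.74 with GC content, a description over genes of a single library. Of the 15 members with a GC content of at least 50%, 14 had a log2 fold change above 0, with a median of 0.22. Of the 31 below 50%, 12 did, with a median of −0.04. Without MA PANC-1 2 these medians were 0.12 and 0.05, and after removal of the GC trend of each library both were 0.13. In all, 32 of 46 members lay above 0 without that library (48.8% of all genes) and 39 of 46 with the trend removed (52.9% of all genes), and 15 members had the opposite sign once the trend was removed. An unadjusted p-value under 0.05 was then reached by 6 members that were higher, beside 7.78% of all genes, and 0 that were lower, beside 6.3%. These 6 were HSPA1B, HSP90AB1, STIP1, TCP1, CCT3 and CCT4. Without MA PANC-1 2 there were 4 higher, HSPA1B, STIP1, TCP1 and CCT4, beside 4.51%, and 0 lower, beside 5.81%. The fold changes of single genes are therefore followed by the value after removal of the trend where its sign turned or its size moved by more than 1.5 times. An effect of MA that went with GC content would be removed with the trend, and this was not tested.

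**Figure D2:**
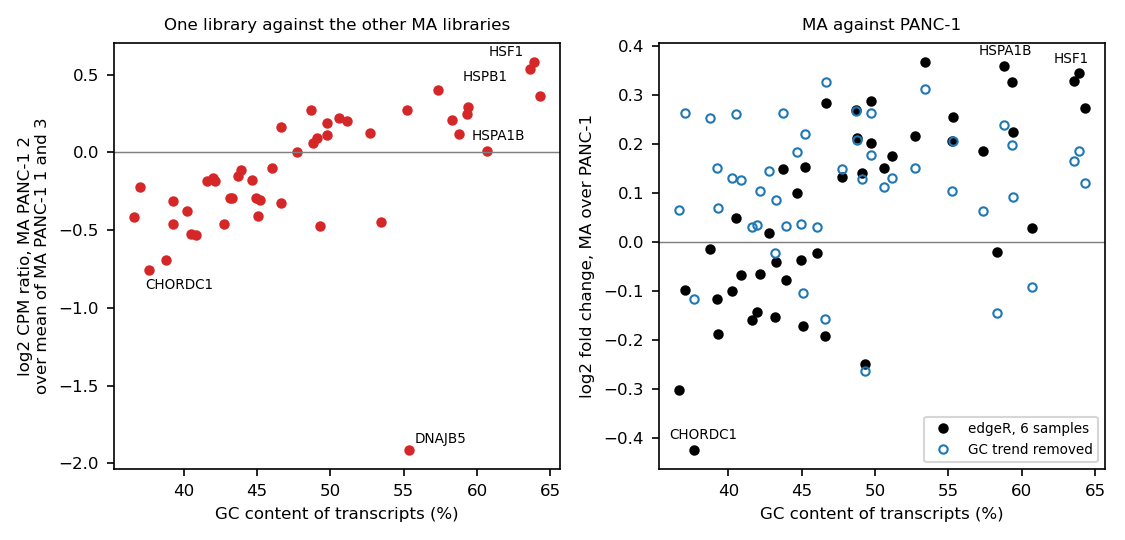
Left, log2 ratio of the CPM of MA PANC-1 2 over the mean of MA PANC-1 1 and 3 against the GC content of each gene's transcripts in percent; right, log2 fold change of MA over PANC-1 against the same GC content, as fitted by edgeR on 6 samples (filled) and after removal of the GC trend (open). In the filled points 14 of 15 members at or above 50% GC lie above 0, and after removal of the trend 39 of 46 members do.

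The levels of the chaperones spanned more than 3 orders of magnitude. On the FPKM scale, which is per length and can be compared between genes, 14 members had a mean of at least 100, and 2, HSPA2 and DNAJA4, were under 1. HSP90AB1 was the most abundant, followed by HSPA8, CCT4, CCT7 and HSPD1, and these 5 carried 44.8% of the summed FPKM of the set. The summed level of the 46 genes was 3662, 3342 and 3829 FPKM in MA PANC-1 1 to 3 and 3674, 3442 and 3537 FPKM in PANC-1 1 to 3. The groups overlapped (exact two-sided permutation test, p = 0.8), and MA PANC-1 2 was the lowest of the 6.

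**Figure D3:**
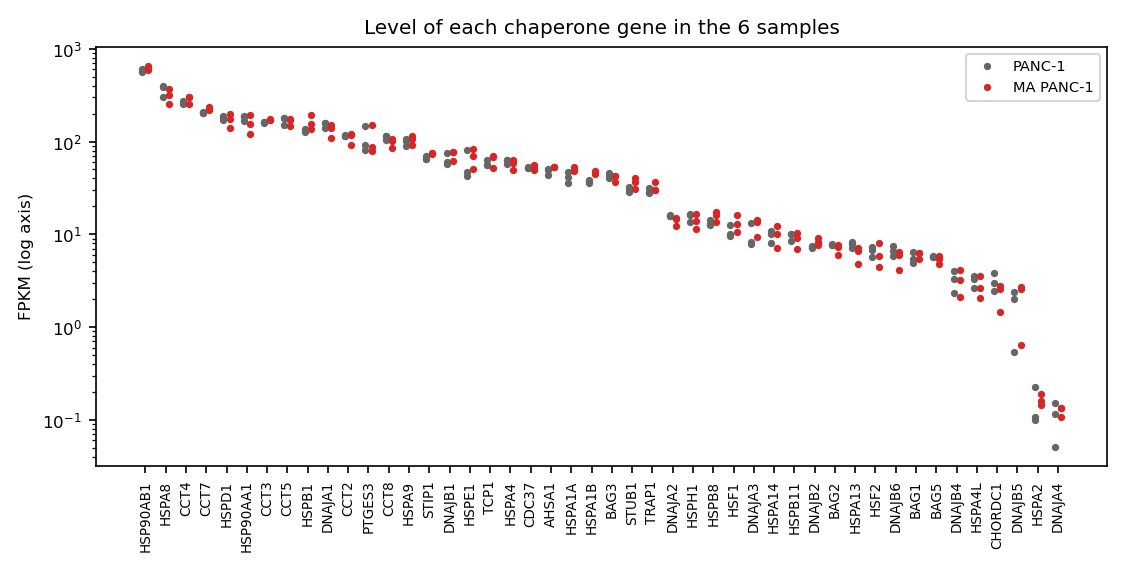
FPKM (log axis) of each chaperone gene in the 3 PANC-1 samples (grey) and the 3 MA PANC-1 samples (red), ordered by the mean over the 6 samples. HSP90AB1 is the highest, HSPA2 and DNAJA4 lie under 1 FPKM, and DNAJB5 has a spread that is wide in both groups.

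The promoters of the set were searched for heat shock elements, because a part of these genes are classical targets of HSF1. In the RefSeq promoter windows of GRCh38.p14, 250 bases before to 50 after each start, 42 of the 46 members had an entry; HSF1, HSPA14, HSPB11 and STUB1 had none. The full element has 3 alternating units with 2 free bases between them (GAA NN TTC NN GAA or TTC NN GAA NN TTC, on either strand). It was found in 7 of the 42 members (16.7%) and in 166 of the 27305 genes of the table (0.608%), or 0.49% of its 35116 windows. The shorter form, GAANNTTC or TTCNNGAA, which every full element contains, was found in 21 of the 42 (50.0%) and in 16.2% of all genes, or 13.5% of windows. A match is a stretch of letters and not a measured binding site. Nor does a window without a match show that HSF1 does not bind the gene. The heat-inducible HSPH1 and the stress-induced BAG3 had neither form. A gene was counted if any of its windows matched. The windows nearest the deposited starts of HSP90AA1, HSP90AB1 and HSPD1 held no full element. The stretches below show elements of 6 members that carry the full form before a RefSeq start, and of HSPA1A, HSPA1B and DNAJB1 with the shorter form. Those of HSP90AA1, HSP90AB1, HSPA8, HSPD1, DNAJB6 and DNAJB1 lie within the deposited intervals of their genes. Each is written 5′ to 3′ on the strand of its gene in GRCh38.p14, with the letters of these elements in capitals. A further match to the shorter form in the HSP90AA1 stretch is left in lower case.
CHORDC1 (chr11:90223067-90223129, minus strand): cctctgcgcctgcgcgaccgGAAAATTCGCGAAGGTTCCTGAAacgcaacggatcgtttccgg
HSP90AA1 (chr14:102087100-102087152, minus strand): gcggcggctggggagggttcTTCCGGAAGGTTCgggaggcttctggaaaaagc
HSP90AB1 (chr6:44247758-44247863, plus strand): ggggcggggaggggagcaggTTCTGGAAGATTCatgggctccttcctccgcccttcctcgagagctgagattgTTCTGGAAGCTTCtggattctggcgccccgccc
HSPA8 (chr11:123062159-123062211, minus strand): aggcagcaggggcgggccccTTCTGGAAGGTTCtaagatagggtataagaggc
HSPD1 (chr2:197500048-197500090, minus strand): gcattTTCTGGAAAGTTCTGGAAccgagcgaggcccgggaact
DNAJB6 (chr7:157336853-157336905, plus strand): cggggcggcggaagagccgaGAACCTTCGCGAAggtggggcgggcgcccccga
HSPA1A (chr6:31815417-31815464, plus strand): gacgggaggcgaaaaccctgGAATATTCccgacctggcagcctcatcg
HSPA1B (chr6:31827613-31827660, plus strand): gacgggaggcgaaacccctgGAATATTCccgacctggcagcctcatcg
DNAJB1 (chr19:14518417-14518494, minus strand): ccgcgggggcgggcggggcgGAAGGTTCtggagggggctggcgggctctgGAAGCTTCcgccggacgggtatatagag

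In CHORDC1, HSP90AB1 and HSPD1 the letters repeat, as overlapping or separate elements, and HSPA8 held a second full element further from its start that is not printed. The stretches of HSPA1A and HSPA1B had the same base at 47 of 48 positions. The printed HSPD1 stretch ended 50 bases before the deposited interval of its neighbour HSPE1, which is transcribed in the opposite direction. The RefSeq window of HSPE1, built on a start further downstream, held no match. DNAJA1, the seventh member with the full form, carried it after its start.

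Members with the full element lay mostly below 0, by a median that shrank without MA PANC-1 2. Of the 7, 6 had a log2 fold change below 0, the values ran from −0.42 to 0.13 with a median of −0.17. At an unadjusted p-value under 0.05 the calls were 0 of these 7, 3 of the 14 members with the shorter form alone (HSPA1A, HSPA1B and STIP1, all higher) and 0 of the 21 with neither, where 5.37% of all genes were higher and 5.86% lower. With the GC trend removed the median was −0.10, without MA PANC-1 2 it was −0.06, and 2 lay above 0 in either case. The 14 members with the shorter form alone had a median of 0.18, with 10 above 0. The 21 with neither had a median of 0.03, with 12 above 0. With the trend removed these medians were 0.21 and 0.11, with 14 and 19 above 0, beside 52.9% of all genes. Without MA PANC-1 2 they were 0.17 and 0.07, with 12 and 14 above 0, beside 48.8%. The median GC content of the 3 groups was 45.08%, 46.95% and 48.79%, in this order, and the part of GC content in the differences between them was not tested.

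**Figure D4:**
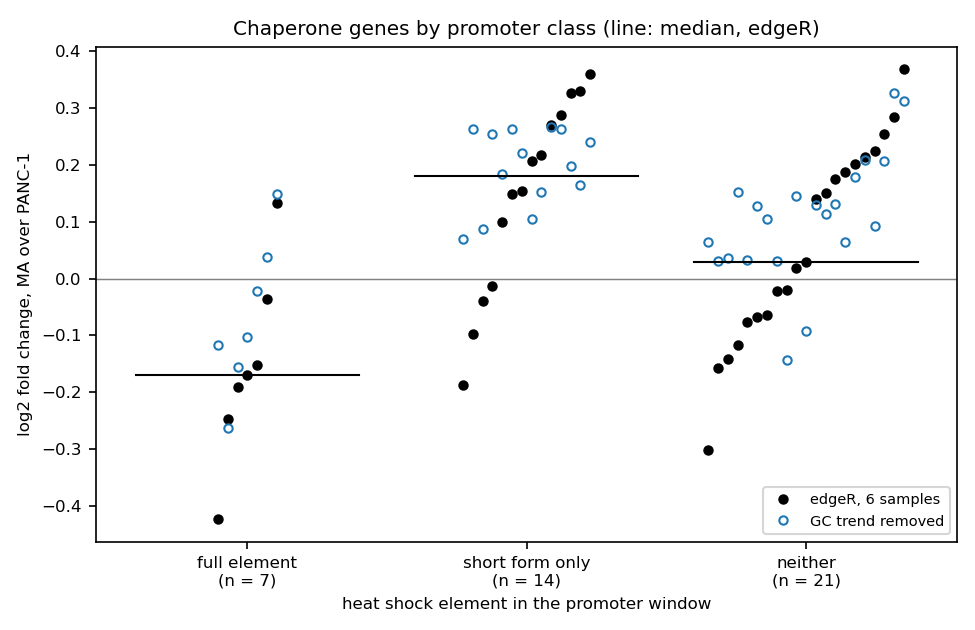
Log2 fold change of MA over PANC-1 for 42 chaperone genes, grouped by whether the RefSeq promoter window held the full heat shock element, the shorter form alone or neither; filled points are edgeR on 6 samples, open points are those after removal of the GC trend, and the line is the median of the filled points. In the group with the full element 6 of 7 filled points lie below 0.

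HSF1, the master factor of the heat shock response, had levels of 10.6, 16.3 and 12.9 FPKM in the samples MA PANC-1 1 to 3 and 9.66, 12.7 and 9.99 FPKM in PANC-1 1 to 3. MA PANC-1 2 was the highest of the 6, and the groups overlapped. The log2 fold change of HSF1 was 0.34 ± 0.20 (SE, adjusted p = 0.531, edgeR), 0.12 without that library and 0.19 with the GC trend removed. Without MA PANC-1 1 it was 0.50, with an unadjusted p-value under 0.05. HSF2, a related factor that can form mixed trimers with HSF1, stood at a lower level, with 5.78, 4.46 and 8.12 FPKM after MA and 6.69, 5.72 and 7.21 FPKM without it. Its log2 fold change was −0.07 ± 0.21 (SE, adjusted p = 0.922, edgeR) and 0.13 with the trend removed.

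The pair of stress-inducible HSP70 genes, HSPA1A and HSPA1B, came nearest to a difference. HSPA1B (ENSG00000204388, chr6:31827738-31830254) had levels of 48.2, 47.0 and 45.0 FPKM in MA PANC-1 1 to 3, a mean of 46.7 ± 1.60 (SD, n = 3), and 38.9, 35.4 and 37.8 FPKM in PANC-1 1 to 3, a mean of 37.4 ± 1.79 (SD, n = 3). All 3 treated samples were above all 3 untreated ones, with a gap wider than the spread within either group. The log2 fold change was 0.36 ± 0.088 (SE, 95% interval 0.15 to 0.57), a 1.28-fold difference, which did not pass the adjustment over all genes (adjusted p = 0.375, edgeR). Without MA PANC-1 2 it was 0.32, and with the GC trend removed 0.24.

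HSPA1A (ENSG00000204389, chr6:31815464-31817946) encodes the same protein from a neighbouring locus. Its level was 48.8, 53.4 and 48.0 FPKM in MA PANC-1 1 to 3 and 46.4, 35.5 and 41.2 FPKM in PANC-1 1 to 3. The groups were separate, but PANC-1 1 lay close under the treated samples. The log2 fold change was 0.33 ± 0.13 (SE, adjusted p = 0.434, edgeR) and 0.20 with the GC trend removed, where the unadjusted p-value was no longer under 0.05, as in 4 of the 6 fits that left out 1 sample and in the fit with the replicate number as a block. How reads were split between these genes is uncertain: of the 150-base stretches of the longest HSPA1A transcript, 67.1% also occur in an HSPA1B transcript. Summed into 1 row they gave a log2 fold change of 0.34 ± 0.10 (SE, adjusted p = 0.388, edgeR).

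The other HSP70 genes lay on both sides of 0. HSPA8, the constitutive cytosolic HSP70 that also uncoats clathrin vesicles (ENSG00000109971, chr11:123057489-123063230), was at 314, 252 and 366 FPKM after MA and 387, 397 and 302 FPKM without it. The groups overlapped, and the log2 fold change was −0.19 ± 0.15 (SE, adjusted p = 0.634, edgeR). It ran from −0.09 without MA PANC-1 2 to −0.31 without PANC-1 3. The summed level of HSPA1A and HSPA1B over that of HSPA8 was 0.309, 0.399 and 0.254 in MA PANC-1 1 to 3 and 0.221, 0.179 and 0.262 in PANC-1 1 to 3. MA PANC-1 3 lay below PANC-1 3, so this ratio did not separate the groups (exact two-sided permutation test, p = 0.2).

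HSPA9, mortalin, the HSP70 of the mitochondrial matrix and motor of protein import (ENSG00000113013, chr5:138553756-138575724), was at 108, 90.9 and 114 FPKM after MA and 89.7, 107 and 102 FPKM without it. It did not separate the groups (log2 fold change 0.10 ± 0.10 SE, adjusted p = 0.720, edgeR), and the value was 0.18 with the GC trend removed. With each sample left out, the value of HSPA9 ran from 0.03 without PANC-1 1 to 0.15 without MA PANC-1 2. HSPA13, an HSP70 of microsomes, was among the 3 lowest fold changes: 7.07, 4.74 and 6.55 FPKM after MA against 8.21, 7.09 and 7.78 FPKM. All 3 treated samples were lower, at a log2 fold change of −0.30 (SE 0.15, adjusted p = 0.479, edgeR), yet it was −0.18 without MA PANC-1 2 and 0.06 with the GC trend removed. HSPA14, which works at the ribosome, had a log2 fold change of 0.05 under the identifier used, 0.26 with the GC trend removed and −0.11 when both identifiers, which overlap on the same strand, were summed. HSPA2, the testis-enriched HSP70, stayed at or below 0.223 FPKM in the 6 samples.

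HSP110 proteins exchange the nucleotide of HSP70. Their 3 genes, HSPH1, HSPA4 and HSPA4L, all had log2 fold changes below 0, from −0.19 to −0.06, none with an unadjusted p-value under 0.05. HSPH1 (ENSG00000120694, chr13:31134974-31162388), the heat-inducible member, was at 13.8, 11.4 and 16.6 FPKM after MA and 16.5, 13.7 and 16.1 FPKM without it. The groups overlapped (log2 fold change −0.12 ± 0.13 (SE), adjusted p = 0.752, edgeR). The log2 fold changes of the 3 genes ran from −0.05 to −0.01 without MA PANC-1 2, while HSPH1 was at −0.24 without MA PANC-1 3. With the GC trend removed all 3 were above 0, HSPH1 at 0.15, HSPA4 at 0.11 and HSPA4L at 0.07, so no direction can be given for this class.

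J-domain proteins choose the clients of HSP70, and 5 of the 9 genes lay above 0 with a median of 0.21. Without MA PANC-1 2 these were 6 and 0.12, and with the GC trend removed 7 and 0.10. DNAJB1, HSP40 (ENSG00000132002, chr19:14514769-14529308), whose printed promoter stretch held the shorter element at 2 places, was at 76.9, 77.9 and 62.2 FPKM after MA and at 57.2, 60.5 and 75.7 FPKM without it. In each group 1 sample lay among those of the other, MA PANC-1 3 and PANC-1 3, and the log2 fold change of 0.21 ± 0.15 (SE, adjusted p = 0.608, edgeR) did not separate them. It was 0.11 without MA PANC-1 2 and 0.10 with the GC trend removed. DNAJA3, the J-domain partner of HSPA9 in mitochondria (ENSG00000103423, chr16:4425805-4456775), had the highest log2 fold change of the set, 0.37 ± 0.23 (SE, adjusted p = 0.545, edgeR). Its levels of 13.4, 9.40 and 14.2 FPKM after MA and 8.25, 13.1 and 7.93 FPKM without it fell into a high and a low range, and both groups had samples in each. Without PANC-1 2, the high untreated sample, the log2 fold change was 0.64 with an unadjusted p-value under 0.05.

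DNAJB6, a suppressor of protein aggregation (ENSG00000105993, chr7:157335381-157417433), was at 6.40, 4.13 and 5.93 FPKM after MA and 6.54, 5.89 and 7.51 FPKM without it. Its log2 fold change of −0.25 ± 0.16 (SE, adjusted p = 0.559, edgeR) was among the 3 lowest. It was −0.26 with the GC trend removed, but −0.11 without MA PANC-1 2, the lowest sample. DNAJB2, a J-domain protein rich in neurons, did not overlap between the groups, at 7.71 to 9.08 FPKM after MA and 7.18 to 7.53 FPKM without it. The log2 fold change of DNAJB2 was 0.22, or 0.12 without MA PANC-1 2 and 0.09 with the GC trend removed. DNAJA1 and DNAJA2, partners of HSPA8 in the cytosol, were at −0.15 and −0.14, and at −0.02 and 0.04 with the GC trend removed. DNAJB4 was at −0.01, and at 0.25 with the trend removed. DNAJB5 ranged from 0.541 to 2.67 FPKM, with 1 low sample in each group, MA PANC-1 2 and PANC-1 1.

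Among the HSP90 genes the isoforms differed in sign. HSP90AB1, the constitutive cytosolic HSP90 (ENSG00000096384, chr6:44246166-44253888), was at 652, 594 and 622 FPKM after MA and at 604, 574 and 568 FPKM without it. Measured in CPM the groups did not overlap, and the log2 fold change was 0.13 ± 0.077 (SE, adjusted p = 0.527, edgeR). HSP90AA1, the stress-inducible isoform (ENSG00000080824, chr14:102080738-102139699), was at 154, 122 and 194 FPKM after MA and at 187, 167 and 185 FPKM without it, a log2 fold change of −0.17 ± 0.14 (SE, adjusted p = 0.661, edgeR). MA PANC-1 3 was the highest of the 6 and MA PANC-1 2 the lowest. The log2 fold change of HSP90AA1 was −0.33 without the former, with an unadjusted p-value under 0.05, −0.05 without the latter and −0.10 with the GC trend removed. The ratio of HSP90AB1 to HSP90AA1 was 4.24, 4.88 and 3.22 in MA PANC-1 1 to 3 and 3.23, 3.45 and 3.07 in PANC-1 1 to 3. It was above every untreated value in 2 of the 3 treated samples (exact two-sided permutation test, p = 0.3). Both genes carried full heat shock elements, and the difference between them was tested by this ratio alone.

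TRAP1, the HSP90 of mitochondria (ENSG00000126602, chr16:3651639-3717553), was at 30.3, 37.0 and 30.0 FPKM after MA and 28.0, 31.2 and 28.9 FPKM without it. Its log2 fold change of 0.19 ± 0.13 (SE, adjusted p = 0.596, edgeR) was 0.04 without MA PANC-1 2, the highest sample, and 0.06 with the GC trend removed.

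HSP90 passes its clients along a chain of co-chaperones. STIP1, or HOP, which joins HSP70 to HSP90 (ENSG00000168439, chr11:64185272-64204543), had levels of 76.1, 76.2 and 74.2 FPKM in MA PANC-1 1 to 3, a mean of 75.5 ± 1.14 (SD, n = 3). Without MA it was at 70.2, 65.0 and 64.8 FPKM, a mean of 66.7 ± 3.06 (SD, n = 3). The treated samples lay within a narrow band above all untreated ones, with a log2 fold change of 0.22 ± 0.084 (SE, 95% interval 0.02 to 0.41) that did not pass the adjustment (adjusted p = 0.435, edgeR). With the GC trend removed it was 0.15. The unadjusted p-value of STIP1 was not under 0.05 in DESeq2, without a filter on low values, or in 4 of the 6 fits that left out 1 sample.

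AHSA1, which stimulates the ATPase of HSP90, likewise lay higher in each treated sample, at 53.5, 53.5 and 53.2 FPKM against 49.1, 43.3 and 50.7 FPKM. Its log2 fold change was 0.20 ± 0.092 (SE, adjusted p = 0.465, edgeR). CHORDC1, or morgana, an HSP90 co-chaperone with 3 overlapping full elements in its promoter window (ENSG00000110172, chr11:90200429-90223077), had the lowest fold change of the set. It was at 2.54, 1.46 and 2.78 FPKM after MA and 2.95, 2.45 and 3.85 FPKM without it. MA PANC-1 2 was the lowest sample and the groups overlapped, with a log2 fold change of −0.42 ± 0.25 (SE, adjusted p = 0.528, edgeR), −0.21 without that sample and −0.12 with the GC trend removed. CDC37, which loads kinases onto HSP90, had a log2 fold change of 0.03, or −0.09 with the trend removed, with 49.7 to 55.2 FPKM across the 6 samples. PTGES3, p23, varied widely within each group, at 87.4, 79.8 and 150 FPKM after MA and 147, 80.8 and 91.6 FPKM without it. PTGES3 had a log2 fold change of 0.02, or 0.15 with the trend removed. STUB1, or CHIP, the ubiquitin ligase that sends chaperone clients to degradation, was at 0.27 ± 0.14 (SE, adjusted p = 0.484, edgeR), at 0.14 without MA PANC-1 2 and at 0.12 with the trend removed.

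**Figure D5:**
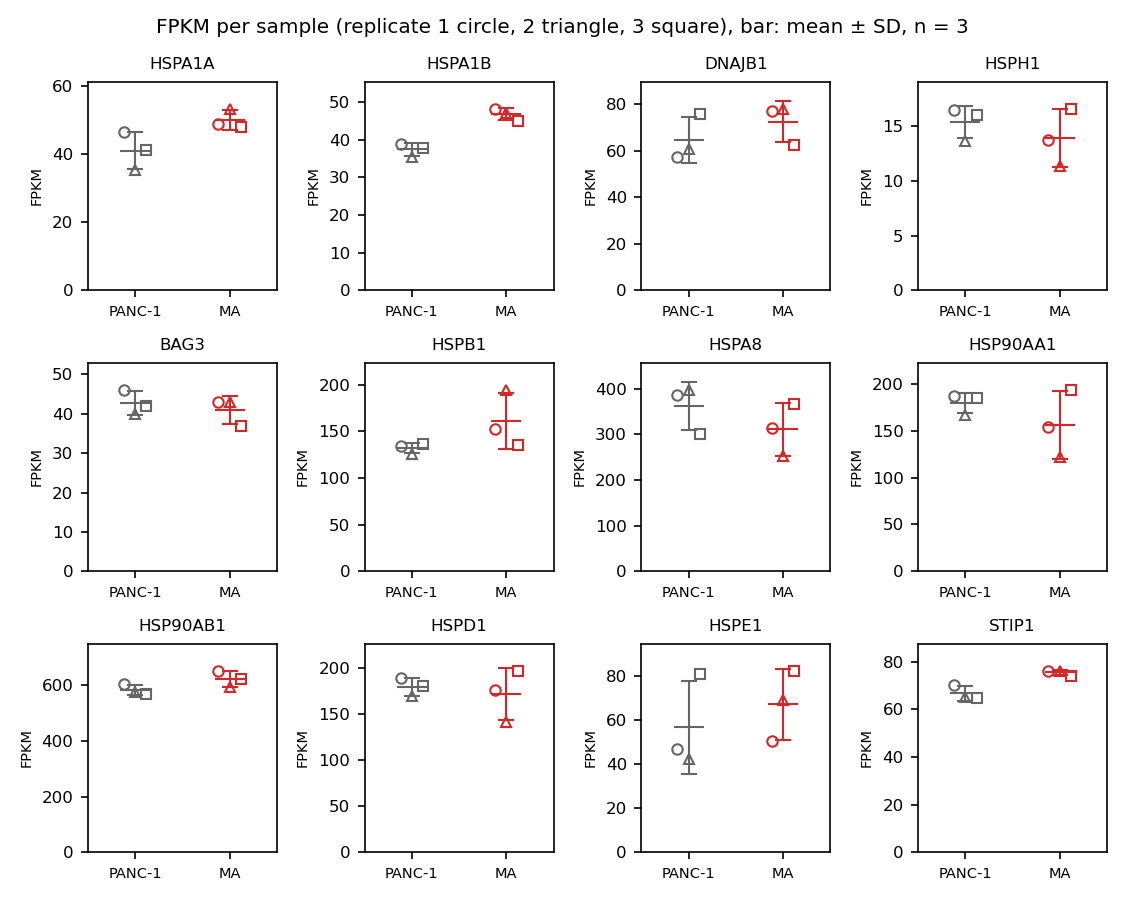
FPKM of 12 chaperone genes in each sample (circle, replicate 1; triangle, replicate 2; square, replicate 3), with the mean and SD of each group of 3; each axis starts at 0. HSPA1A, HSPA1B and STIP1 are separate between MA and PANC-1, and the other 9 overlap on this scale.

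BAG proteins are nucleotide exchange factors that steer HSP70 to different fates, and their 4 genes lay between −0.10 and 0.15. They lay between −0.10 and 0.07 without MA PANC-1 2. With the GC trend removed BAG2 turned from −0.10 to 0.26 and BAG5 from −0.08 to 0.03. BAG3, which couples HSP70 to autophagy and is strongly induced by proteotoxic stress (ENSG00000151929, chr10:119651370-119677819), was at 43.0, 43.0 and 36.9 FPKM after MA and 46.1, 40.0 and 42.1 FPKM without it. The groups overlapped throughout, at a log2 fold change of −0.02 ± 0.11 (SE, 95% interval −0.28 to 0.24, adjusted p = 0.958, edgeR), or −0.14 with the trend removed.

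Of the small heat shock proteins, HSPB1, HSP27 (ENSG00000106211, chr7:76302673-76304292), was at 153, 195 and 135 FPKM after MA and at 134, 126 and 137 FPKM without it. The log2 fold change of 0.33 ± 0.16 (SE, adjusted p = 0.480, edgeR) rested on MA PANC-1 2: it was 0.12 without that library and 0.17 with the GC trend removed. HSPB8, the partner of BAG3, was at 17.2, 16.3 and 13.6 FPKM after MA and 12.5, 12.9 and 14.3 FPKM without it, a log2 fold change of 0.29 ± 0.13 (SE, adjusted p = 0.467, edgeR). It overlapped by 1 sample in each group. HSPB11, a protein of the ciliary transport complex that carries a small heat shock name, was at −0.10, at 0.01 without MA PANC-1 2 and at 0.13 with the trend removed.

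The mitochondrial chaperonin is made from neighbouring genes read in opposite directions, whose deposited intervals overlap at their starts. HSPD1, HSP60 (ENSG00000144381, chr2:197486584-197500274), was at 176, 141 and 197 FPKM after MA and at 189, 169 and 180 FPKM without it. Its log2 fold change was −0.04 ± 0.11 (SE, 95% interval −0.30 to 0.22, adjusted p = 0.919, edgeR), or 0.04 with the GC trend removed. HSPE1, HSP10, the lid of the chaperonin (ENSG00000115541, chr2:197500140-197503382), was at 50.4, 69.2 and 82.6 FPKM after MA and at 47.1, 42.3 and 81.0 FPKM without it. MA PANC-1 3 and PANC-1 3 were both high, and the log2 fold change of 0.28 ± 0.28 (SE, adjusted p = 0.704, edgeR) was close to the size of its error. It moved with single libraries and was 0.11 without PANC-1 2 and 0.62 without PANC-1 3, where the unadjusted p-value was under 0.05. The ratio of HSPD1 to HSPE1 was 3.48, 2.04 and 2.38 in MA PANC-1 1 to 3 and 4.0, 3.99 and 2.23 in PANC-1 1 to 3. In 2 of the 3 untreated samples it lay above every treated value (exact two-sided permutation test, p = 0.3). Pseudogenes of HSPE1 held 3.45% as many counts as the gene, and those of PTGES3 4.40%, so a part of the reads of both can be misplaced.

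TRiC folds actin and tubulin, and 7 of its subunits were in the set. Their log2 fold changes lay between −0.16 and 0.17, the narrowest range among the classes of more than 4 genes, with a median of 0.14 and 4 above 0. CCT3 was at 172 to 176 FPKM after MA and 159 to 163 FPKM without it, and CCT7 at 218 to 235 FPKM and 204 to 206 FPKM, so both were separate between the groups, with log2 fold changes of 0.14 and 0.17, or 0.11 and 0.10 without MA PANC-1 2. CCT4 was at 301, 252 and 302 FPKM after MA and 275, 259 and 256 FPKM without it. TCP1 was at 68.8, 51.7 and 69.3 FPKM after MA and 55.6, 63.1 and 55.5 FPKM without it. In both, MA PANC-1 2 lay below the other treated samples, and without it their log2 fold changes were 0.20 and 0.25. CCT8, at −0.16, CCT2, at −0.04, and CCT5, at −0.02, completed the set. Without MA PANC-1 2 the class had a median of 0.10 with 6 above 0, and with the GC trend removed all 7 lay above 0, these 3 at 0.03, 0.09 and 0.03 and CCT4 at 0.26. The summed FPKM of the 7 subunits was 1160, 1035 and 1160 after MA and 1107, 1052 and 1094 without it (exact two-sided permutation test, p = 0.6). CCT6A, a further subunit outside the set, was at −0.08 ± 0.11 (SE, adjusted p = 0.801, edgeR), and at 0.09 with the trend removed.

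Wider lists of the same pathways were counted in the same way. Of 32 heat-inducible HSF1 targets, 31 were tested, 19 of them members, and edgeR put 5 higher and 0 lower at an unadjusted p-value under 0.05, where 5.37% of all genes were higher and 5.86% lower. Among the 12 that are not members, CLU, the extracellular chaperone clusterin, was at 58.8, 58.1 and 54.9 FPKM after MA and 39.9, 37.9 and 49.5 FPKM without it. The groups were separate (log2 fold change 0.47 ± 0.12 (SE), adjusted p = 0.388, edgeR). FKBP4, the immunophilin of steroid receptor complexes, was at 57.0 to 70.1 FPKM after MA and 50.6 to 54.3 FPKM without it, a log2 fold change of 0.31 ± 0.12 (SE, adjusted p = 0.432, edgeR) that was 0.19 without MA PANC-1 2. HSPA6, the HSP70 that is nearly silent without heat, was at 0.732, 1.03 and 0.601 FPKM after MA and 0.529, 0.566 and 0.745 FPKM without it, and was named here after its values were seen. It overlapped between the groups at a level near 1 FPKM. CRYAB was below the filter. None of the 31 passed at an adjusted p-value under 0.05 in edgeR.

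Of 67 other cytosolic chaperones and co-chaperones, 60 were tested, and 3 were higher and 1 lower at an unadjusted p-value under 0.05, with 0 at an adjusted one (edgeR). This list shares 5 genes with the HSF1 targets, and FKBP4 is among the higher genes of both. Over all genes tested these shares were 5.37%, 5.86% and 0.0394%. DNAJC14 was at 16.7, 8.06 and 15.1 FPKM after MA and 8.20, 8.32 and 8.50 FPKM without it. MA PANC-1 1 and 3 were thus high and MA PANC-1 2 at the untreated level (log2 fold change 0.70 ± 0.23 (SE), adjusted p = 0.419, edgeR). With that library left out DNAJC14 stood at 0.93 on the log2 scale and passed the adjusted threshold (adjusted p = 0.0463, edgeR), as did no other gene of the 3 wider lists in that fit, where 0.135% of all genes passed. TBCD, a tubulin folding cofactor, had a log2 fold change of 0.35, or 0.19 without MA PANC-1 2 and 0.23 with the GC trend removed. DNAJC13, an endosomal J-domain protein, was at −0.49, or −0.29 with the trend removed, and at −0.34 without MA PANC-1 2, where its unadjusted p-value was no longer under 0.05.

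In mitochondria, 21 of 22 listed chaperones and quality control genes were tested, and the name DNAJC20 was not used in the table. DNLZ, an escort protein of HSPA9, was at 2.44, 2.84 and 2.90 FPKM after MA and 1.08, 2.07 and 1.05 FPKM without it. Its log2 fold change of 0.99 ± 0.30 (SE, adjusted p = 0.390, edgeR) was the largest of this list. ATF5, a transcription factor linked to the mitochondrial stress response, was at 35.0, 44.8 and 32.6 FPKM after MA and 28.0, 26.2 and 27.5 FPKM without it, with a log2 fold change of 0.51 ± 0.15 (SE, adjusted p = 0.391, edgeR), or 0.31 without MA PANC-1 2. PAM16, a subunit of the import motor that works with HSPA9, was at 0.46, and at 0.28 without MA PANC-1 2, where its unadjusted p-value was no longer under 0.05. These 3 were higher and 0 were lower at an unadjusted p-value under 0.05, and 0 passed the adjusted threshold in edgeR, beside 5.37%, 5.86% and 0.0394% of all genes tested.

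The cells carried markers of a PANC-1-like epithelial line in part. KRT8 (141 to 225 FPKM), KRT18 (278 to 338 FPKM) and VIM (521 to 754 FPKM) were abundant and KRT7 was low (1.40 to 2.19 FPKM), while KRT19 and EPCAM, common in ductal carcinoma, were below the filter, at most 0.109 and 0.132 FPKM. Of the markers of other cells, the leukocyte gene PTPRC, the endothelial genes PECAM1 and CDH5, the fibroblast gene DCN, the acinar genes PRSS1, CPA1 and CELA3A and the islet genes INS and GCG were below the filter. CD68 (25.6 to 40.9 FPKM) and COL1A1 (2.64 to 5.96 FPKM) were present in both groups, and both overlapped between them.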

How the data were processed

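RNA of 6 PANC-1 samples was sequenced after poly(A) selection with strand-specific paired reads. The submitters' processing notes name cutadapt 1.9, HISAT2 2.0.4, StringTie 1.3.4d, edgeR and DESeq2. Per gene and sample the authors deposited FPKM, scaled by them for length and depth and listed as 0.0001 without reads. The authors also deposited estimated counts as whole numbers, without normalization. Positions matched GRCh38. The annotation release and the strand setting of the counting are not given in the sources used here. Whether reads of genes that overlap on opposite strands were told apart is therefore uncertain.

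From these counts, genes with a mean of at least 0.1 FPKM (17774 of 58825) were tested with edgeR 4.0.16 in R 4.3.3 (TMM, quasi-likelihood test, no covariate), with Benjamini-Hochberg adjustment over all of them. A standard error is the log2 fold change divided by the square root of F. Single values were given exact permutation tests over samples. Since counts are estimates, precision rests on the spread between replicates. Alternatives were DESeq2 1.42.0, limma 3.58.1 on log2(FPKM + 0.1) or log2(FPKM + 1), other scalings and filters, halved counts, a replicate block, leaving out each sample and summing shared genes. The removal of each library's GC trend (loess, span 0.5, a mean count of 100 or more, transcripts of GENCODE 29) was added after seeing the data. Ratios between genes were also chosen after seeing the data, and the grouping of fold changes by promoter element was not planned beforehand. The fits were tested on simulated data. The members and the wider lists were chosen with earlier results of these data known. Genes given in full were those with an unadjusted p-value under 0.05, the 3 highest and 3 lowest fold changes and the best known of each class; from the wider lists, at most 4 by smallest p-value. Promoter stretches are from RefSeq; protein sequences were not used here.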

Additional observations from a re-analysis of the deposited data

How the results depend on the processing

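The counts of members with an adjusted p-value under 0.05 and of DEGs were 0 under every alternative run. The count of members higher at an unadjusted p-value under 0.05 was 3, and 6 with the GC trend removed. It ran from 2 to 6 with each sample left out, 6 being the count without MA PANC-1 3, where 8.39% of all genes were higher and 9.69% lower, and the count of lower members ran from 0 to 1. The median log2 fold change of the members ran from 0.03 to 0.11 with each sample left out, and was 0.01 with limma on log2(FPKM + 1), 0.02 with the filter at a mean of 1 FPKM and 0.13 with the GC trend removed. With the replicate number as a block, 3 members were higher, HSPA1B, STIP1 and, in place of HSPA1A, HSF1, beside 5.5% of all genes, and 2, HSPA13 and CHORDC1, lower, beside 6.96%. The deviations of same-numbered samples correlated at 0.097, 0.123 and 0.06 over 12560 genes. Each sample correlated best with its own number, and the other pairs lay between −0.09 and 0.01. The labels give only a replicate number, so whether same-numbered samples shared a batch is uncertain. Over all genes the block left 0 genes with an adjusted p-value under 0.05. The fit without it gave 7, DESeq2 263 and the fit without the GC trend 34.

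HSPA1B kept an unadjusted p-value under 0.05 in every alternative run. HSPA1A lost it under the block, without MA PANC-1 1 or 2, without PANC-1 2 or 3 and with the GC trend removed. STIP1 lost it under DESeq2, without a filter on low values, and without MA PANC-1 1 or PANC-1 1, 2 or 3. Besides those under the block, it was gained by HSF1, STUB1 and HSPA13 without MA PANC-1 1, CCT4 and TCP1 without MA PANC-1 2, DNAJB2, HSPB1, HSPB8 and HSP90AA1 without MA PANC-1 3, DNAJA3 without PANC-1 2, HSPE1 without PANC-1 3, and CCT3, CCT4, TCP1 and HSP90AB1 with the GC trend removed. With the trend removed 15 members turned in sign. Among the members given in full, signs reversed for HSF2, from −0.2988 without MA PANC-1 3 to 0.0866 without MA PANC-1 2 with each sample left out (also 0.0054 without PANC-1 3) and 0.1269 with the GC trend removed, for HSPD1, from −0.1255 without MA PANC-1 3 to 0.0513 without MA PANC-1 2 and 0.0373 with the trend removed, and for BAG3, from −0.0964 without MA PANC-1 2 to 0.068 without MA PANC-1 3 (also 0.0356 without PANC-1 1). HSPA13 was at 0.0649 and HSPH1 at 0.1519 with the trend removed, and HSPA14 at −0.1107 with both identifiers summed. For the settings of block, tool and left-out sample the cause was not tested.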

Other observations

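The read-through gene HSPE1-MOB4, which overlaps HSPE1 on the same strand, had estimated counts of 0, 0 and 0 in MA PANC-1 1 to 3 and of 158, 69 and 0 in PANC-1 1 to 3. Summed with HSPE1 it gave a log2 fold change of 0.27 ± 0.27 (SE, adjusted p = 0.713, edgeR), against 0.28 for HSPE1 alone. The second identifier of HSPA14 had counts of 1038, 1548 and 2111 in MA PANC-1 1 to 3 and of 2409, 2094 and 1834 in PANC-1 1 to 3, in total 102% of those of the identifier used, so the sign of HSPA14 after MA depends on which identifiers are counted.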
